A study of Homo sapiens with 12 samples.

Results

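Protocadherins are single-pass membrane proteins of the cadherin superfamily, and their transcripts were measured in HCT116 cells with and without depletion of SDS22, a subunit that accompanies newly made protein phosphatase-1 (PP1). Every protein-coding gene of the count table whose symbol starts with PCDH was taken, which gave 66 of 58233 genes. Of these, 13 are non-clustered genes spread over several chromosomes. The other 53 stand side by side on chromosome 5 (GRCh38, chr5:140786136-141512981, 727 kb) as 15 alpha, 16 beta and 22 gamma genes.

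HCT116 is a human colorectal carcinoma line. The parental cells, HCT116 Tet-OsTIR1, carry the rice F-box protein TIR1 at the AAVS1 locus under a doxycycline (Dox)-inducible promoter. SDS22-degron cells carry the same transgene, and in addition both alleles of PPP1R7, which encodes SDS22, end in a mAID-mClover tag. This line was expanded from an isolated colony and stands for 1 clone. Each line was either left without agents or exposed during 48 h to Dox (2 µg/ml), which switches on TIR1, and to the auxin IAA (500 µM), which recruits the tagged SDS22 for degradation. Both agents were present in both Dox/IAA-treated groups, and there were 3 libraries in each of the 4 groups.

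Protocadherins bind partners of their own kind on adjacent cells. In neurons, each cell chooses a few promoters of the clusters and thereby acquires a surface identity, whereas C-type genes such as PCDHAC2 are transcribed more widely. Every variable exon has its own promoter, which is commonly silenced by methylated DNA, opened by CTCF and cohesin, and marked by a conserved element with the core CGCT. The variable exons of the alpha and gamma clusters are spliced to constant exons shared by the whole cluster, while beta genes are single exons. The non-clustered PCDH1 and PCDH7 belong to the delta-1 group, whose cytoplasmic parts share a motif known to bind PP1, and PCDH7 also binds SET, an inhibitor of protein phosphatase-2A.

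The bases upstream of 4 genes are shown, because PCDH7 had the largest difference between the lines among these genes and PCDHB13, PCDHGB2 and PCDHGA10 were higher in Dox/IAA-treated SDS22-degron cells. They are RefSeq sequences of GRCh38.p14, plus strand. For PCDH7, PCDHB13 and PCDHGA10, 250 bases up to the RefSeq start are given. For PCDHGB2 the stretch has 156 bases, because it stops where the gene begins in the count table, ahead of its RefSeq start at base 141360136. Capitals mark CG in PCDH7, and the letters CGCT or its reverse complement AGCG in the other 3.
PCDH7, chr4:30720119-30720368: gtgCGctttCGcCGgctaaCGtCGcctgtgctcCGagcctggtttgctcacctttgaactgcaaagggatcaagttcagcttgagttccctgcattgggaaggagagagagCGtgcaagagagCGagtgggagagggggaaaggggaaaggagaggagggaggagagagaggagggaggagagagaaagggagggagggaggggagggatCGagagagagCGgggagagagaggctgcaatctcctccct
PCDHB13, chr5:141213669-141213918: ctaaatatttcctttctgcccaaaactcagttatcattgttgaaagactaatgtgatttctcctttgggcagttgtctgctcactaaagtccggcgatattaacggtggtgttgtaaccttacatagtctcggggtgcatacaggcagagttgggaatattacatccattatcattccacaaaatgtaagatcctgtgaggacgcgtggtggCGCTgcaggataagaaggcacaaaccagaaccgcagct
PCDHGB2, chr5:141359886-141360041: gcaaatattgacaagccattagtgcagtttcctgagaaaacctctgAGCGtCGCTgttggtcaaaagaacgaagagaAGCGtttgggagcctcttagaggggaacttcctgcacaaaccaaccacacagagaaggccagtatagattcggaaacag
PCDHGA10, chr5:141412737-141412986: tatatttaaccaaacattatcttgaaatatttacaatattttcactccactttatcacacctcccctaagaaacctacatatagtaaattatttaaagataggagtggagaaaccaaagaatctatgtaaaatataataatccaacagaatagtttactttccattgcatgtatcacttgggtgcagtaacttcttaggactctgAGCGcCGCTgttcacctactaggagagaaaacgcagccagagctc
The PCDH7 stretch holds 10 CG dinucleotides. The element core was found 1 time in the stretch of PCDHB13, 2 times in that of PCDHGA10 and 3 times in the shorter one of PCDHGB2, whose whole window holds 4. RefSeq gave a promoter window of 300 bases (250 before and 50 after the start) for 58 of the 66 genes. CGCT, on either strand, occurred in 51 of the 52 windows of clustered genes (98.1%) and in 70% of all 35116 windows. The letters AGCGNCGCTG, on either strand, which contain AGCG and CGCT and were spelled out after the windows of PCDHGB2 and PCDHGA10 had been read, occurred in 7 of 25 gamma windows, in 0 of 13 alpha and 0 of 14 beta windows, and in 0.421% of all windows. The windows of PCDHGB2 and PCDHGA10 are among the 7 and match because the letters were taken from them. The 25 gamma windows belong to 20 genes. A match to letters describes the window only.

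Levels are given as CPM, the counts of a gene relative to the total counts of its library (per 1000000 counts) after TMM scaling (a correction for the composition of the libraries). Libraries held 12133915 to 14657508 counts on genes. A count of 0 has an upper 95% limit of about 3 counts from counting error, which corresponds to 0.206 to 0.253 CPM. Genes with enough counts were tested with edgeR's quasi-likelihood test, and a gene was called where the Benjamini-Hochberg adjusted p over all 16657 tested genes was under 0.05. The epithelial markers EPCAM, KRT8, KRT18, KRT19 and CDH1 were abundant in all libraries, but VIL1, a marker of the intestinal brush border, reached only 0.153 CPM. The defining markers PTPRC and CD3E of blood cells, CDH5 and PECAM1 of endothelium, COL1A2, DCN and LUM of fibroblasts, and RBFOX3 and STMN2 of neurons were at or near 0. By contrast, COL1A1 of the fibroblast list was at 9.88 to 31.7 CPM, and SYT1 of the neuronal list at 79.3 to 194 CPM. The summed level of the 6 fibroblast markers was 9.96 to 13.9 CPM in untreated and 17.3 to 22.9 CPM in Dox/IAA-treated parental cells, and 13.8 to 15.8 and 21.3 to 31.7 CPM in SDS22-degron cells. The 4 neuronal markers summed to 120 to 163 and 106 to 194 CPM in parental cells, and to 79.6 to 101 and 109 to 151 CPM in SDS22-degron cells. The 3 endothelial markers, with VWF at 0.237 to 1.65 CPM, summed to 0.237 to 0.802 CPM in the other groups and to 1.07 to 1.73 CPM in Dox/IAA-treated SDS22-degron cells, where several protocadherins were highest too. The part of these markers in the results was not tested. PPP1R7 mRNA, which the degron does not target, was at 40.1 to 51.1 CPM in all libraries.

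Most protocadherin genes were nearly silent in these cells. Only 11 of the 66 genes (16.7%) had enough counts to be tested, against 62.7% of the protein-coding genes in the table. They were the non-clustered PCDH1, PCDH7 and PCDH19, the alpha C-type genes PCDHAC1 and PCDHAC2, the beta genes PCDHB13 and PCDHB14, and the gamma genes PCDHGA9, PCDHGA10, PCDHGB2 and PCDHGB7. Of the 55 others, 21 had no count in any library, and the remaining 34 had at most 58 counts over the 12 libraries together. No count was found for 8 of the 10 untested non-clustered genes, among them PCDH9, PCDH10, PCDH15, PCDH17, PCDH18 and PCDH20. The near-identical PCDH11X and PCDH11Y were only counted among the members. Levels per kb of exon were taken over the full length of each gene, which for alpha and gamma genes includes exons shared with other genes. On that scale, untreated parental cells had a level of 13.3 CPM for PCDH7, 9.98 for PCDH1, 2.31 for PCDHGA10 and 1.19 for PCDHAC2. PCDH7 thus led the family in parental cells, with 57.8% to 66.4% of its summed CPM, and PCDH1 led it in SDS22-degron cells, with 66% to 73%. In bulk RNA, fewer cells that express a gene and less RNA per cell cannot be told apart.

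PCDH7 (ENSG00000169851, chr4:30720415-31146805) was the member with the largest difference between the lines. Untreated parental libraries had 172.7, 151.4 and 163.1 CPM and Dox/IAA-treated parental libraries 142.2, 120.6 and 158.9 CPM. Untreated SDS22-degron libraries had 1.68, 1.65 and 1.21 CPM (23, 24 and 16 counts), and Dox/IAA-treated ones 1.3, 1.01 and 0.906 CPM (17, 13 and 11 counts). Every parental library was far above every SDS22-degron library, treated or not. Without the agents, PCDH7 was 106-fold lower in SDS22-degron than in parental cells (log2 fold change -6.73, SE 0.14, adjusted p = 2.43e-16 with edgeR's quasi-likelihood test). With Dox/IAA it was 130-fold lower (log2 fold change -7.02, SE 0.15, adjusted p = 4.13e-16). In both comparisons PCDH7 had the smallest p of the 16657 tested genes. The interaction, which compares the effect of Dox/IAA between the lines, was -0.29 (95% CI -0.93 to 0.35, adjusted p = 0.576), so no change of this difference with the agents was detectable.

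Within each line, the effect of Dox/IAA on PCDH7 was small. In parental cells the log2 fold change was -0.21 (SE 0.09, adjusted p = 0.0723), and the libraries of the 2 groups overlapped. With the replicate number as a block it was -0.21 with an adjusted p of 0.0203, and it also passed the threshold without untreated parental replicate 2 (-0.25, adjusted p = 0.0476) or without treated parental replicate 3 (-0.31, adjusted p = 0.0179). In SDS22-degron cells it was -0.50 (95% CI -1.11 to 0.12, adjusted p = 0.166). The only gene with counts that overlaps PCDH7 is an antisense gene with 6 counts over all libraries.

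The nearest testable genes, at least 3695 kb away, did not share the size of the PCDH7 difference between the lines. One of them, TBC1D19, was lower in SDS22-degron cells in both comparisons. Within 5 Mb on either side, 6 protein-coding genes were testable. Between the Dox/IAA-treated lines their log2 fold changes ranged from -0.53 to 0.36, with 1 called higher (SMIM20, 0.36, adjusted p = 0.00125) and 1 lower (TBC1D19, -0.53, adjusted p = 0.000178). Between the untreated lines they ranged from -1.08 (TBC1D19, adjusted p = 3.89e-07) to 0.30 (SMIM20, adjusted p = 0.00806). The nearest on either side, STIM2, a sensor of calcium in the endoplasmic reticulum, 3695 kb away, and ARAP2, 4801 kb away, had log2 fold changes of -0.07 (adjusted p = 0.466) and -0.09 (adjusted p = 0.578) between the treated lines. Across the 12 libraries, the log2 CPM of METTL9 (Pearson r = 0.992), ZNF134 (0.991) and GNG5 (0.99) followed PCDH7 most closely. These correlations mainly describe the 2 lines, since all libraries of a line share 1 cell clone or stock.

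**Figure D1:**
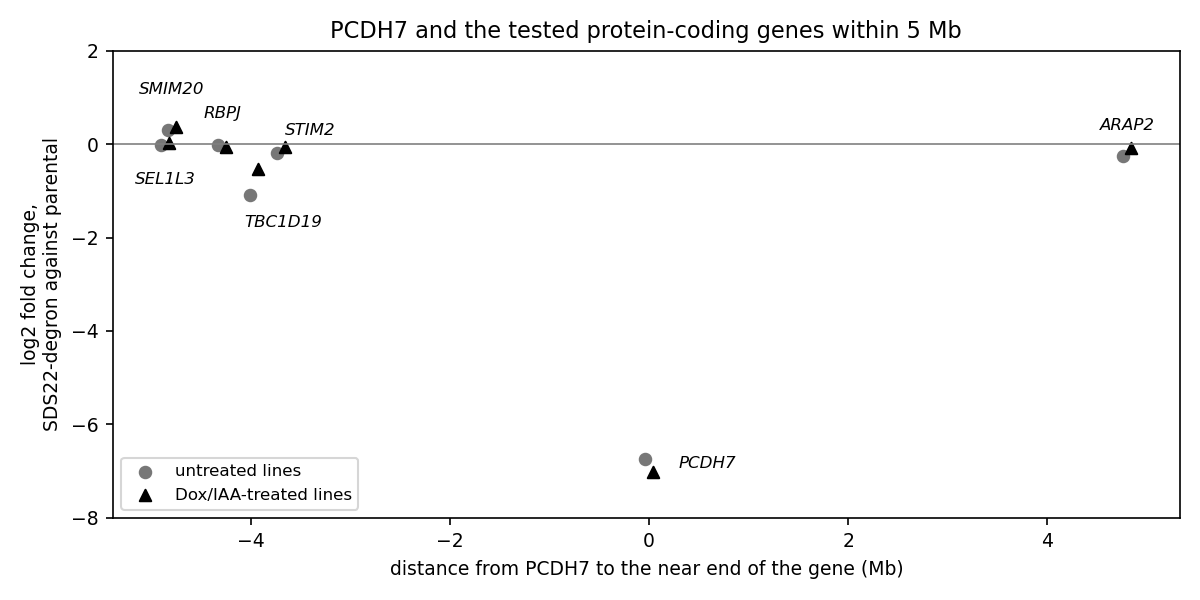
Log2 fold change of SDS22-degron against parental cells for PCDH7 and for the 6 testable protein-coding genes within 5 Mb, plotted against the distance from PCDH7 in Mb (circles: untreated lines, triangles: Dox/IAA-treated lines). PCDH7 lies at -6.73 and -7.02, and the other genes lie between -1.08 and 0.36.

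PCDH1 (ENSG00000156453, chr5:141853111-141879246), a delta-1 protocadherin known from airway epithelium, differed between the lines only under Dox/IAA in these tests. Untreated parental libraries had 64.7, 47.2 and 64.8 CPM, and treated parental libraries 67.0, 46.1 and 63.8 CPM. Untreated SDS22-degron libraries had 55.0, 60.5 and 57.2 CPM, against 96.5, 79.5 and 97.8 CPM after Dox/IAA. The treated SDS22-degron libraries were above all 9 others, which overlapped each other. PCDH1 rose with Dox/IAA by a log2 fold change of 0.66 in SDS22-degron cells (SE 0.13, adjusted p = 0.000254) and by 0.00 in parental cells (95% CI -0.27 to 0.28). It was higher by 0.63 between the treated lines (SE 0.13, adjusted p = 0.000554) and differed by -0.03 between the untreated lines (95% CI -0.30 to 0.24). The interaction was 0.66 (SE 0.18, adjusted p = 0.02). That interaction was no longer called without untreated parental replicate 1 (0.58, adjusted p = 0.056) or 3 (0.59, 0.0573), without untreated SDS22-degron replicate 1 (0.63, 0.0524) or without treated SDS22-degron replicate 3 (0.59, 0.0526), and with the replicate block its adjusted p was 0.00224.

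PCDH19 (chrX:100291644-100410273), a delta-2 protocadherin whose mutations cause an epilepsy, was scarce. Its levels were 0.591, 0.547 and 1.24 CPM in untreated and 0.9, 2.37 and 1.1 CPM in treated parental cells, and 0.292, 0.275 and 0.304 CPM and 0.381, 0.387 and 0.494 CPM in SDS22-degron cells. All SDS22-degron libraries were below all parental libraries. Between the treated lines it was lower by a log2 fold change of -1.77 (SE 0.44, adjusted p = 0.00304), and between the untreated lines by -1.42 (SE 0.53), which missed the threshold with an adjusted p of 0.0553. The latter was called under 6 of 14 alternatives, among them the likelihood ratio test (adjusted p = 0.0275), no filter (0.0314), the replicate block (0.0437) and leaving out untreated parental replicate 2 (-1.61, 0.0467). In parental cells Dox/IAA gave 0.87 (adjusted p = 0.0958), which was called without treated parental replicate 1 (1.13, 0.0409) or without untreated parental replicate 3 (1.33, 0.0343). The SDS22-degron libraries had 4 to 6 counts each, so counting error is large. Over 15 alternatives, all called, the difference between the treated lines ranged from -2.03 to -1.22. The smallest was without treated parental replicate 2 (adjusted p = 0.0334), the library with 2.37 CPM. PCDH19 reached the filter's level of 0.79 CPM in 3 treated and 1 untreated parental libraries and in 0 SDS22-degron ones. Its entry into the test thus depended on the line where it was high.

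In the alpha cluster, the C-type genes PCDHAC1 and PCDHAC2 accounted for 97.2% to 100% of the counts, and the 13 other genes had 0 to 4 counts per library in all. PCDHAC2 rose with Dox/IAA in both lines. It had 6.25, 7.51 and 8.82 CPM in untreated and 11.4, 10.5 and 9.6 CPM in treated parental cells (log2 fold change 0.48, SE 0.14, adjusted p = 0.0117). In SDS22-degron cells it had 5.98, 5.64 and 6.15 CPM without and 10.5, 8.75 and 8.89 CPM with Dox/IAA (0.66, SE 0.14, adjusted p = 0.000687). Treated and untreated libraries did not overlap in either line, and the interaction was 0.18 (95% CI -0.23 to 0.59). The parental call was lost without replicate 1 of the untreated cells (0.36, adjusted p = 0.0693) or of the treated cells (0.42, adjusted p = 0.054). Between the untreated lines PCDHAC2 differed by -0.35 (adjusted p = 0.0848), which was called without untreated parental replicate 1 (-0.45, 0.0352).

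PCDHAC1 had 3.46, 2.35 and 2.88 CPM in untreated parental, 2.7, 2.45 and 3.23 CPM in treated parental, 2.19, 1.65 and 1.67 CPM in untreated SDS22-degron and 2.82, 2.17 and 3.13 CPM in treated SDS22-degron cells. It was lower in untreated SDS22-degron than in untreated parental cells (log2 fold change -0.65, SE 0.23, adjusted p = 0.0394). The call was lost with DESeq2 (-0.65, adjusted p = 0.0869), without untreated parental replicate 1 (-0.50, 0.174) or 3 (-0.65, 0.0806), and without untreated SDS22-degron replicate 2 (-0.58, 0.133) or 3 (-0.59, 0.114). With Dox/IAA in SDS22-degron cells the log2 fold change was 0.56 with an adjusted p of 0.0502, and it was called under 9 of 16 alternatives. These included the likelihood ratio test (0.0377), library size only (0.0355), the upper quartile (0.0426), the GC correction (0.0399), and leaving out untreated replicate 1 (0.70, 0.0383) or treated replicate 2 (0.69, 0.0267). Between the treated lines PCDHAC1 (-0.05, adjusted p = 0.878) and PCDHAC2 (-0.16, adjusted p = 0.329) were not called.

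In the beta cluster, low levels were measured for PCDHB13 and PCDHB14 that were highest in SDS22-degron cells after Dox/IAA. PCDHB13 (chr5:141213919-141218979) had 0.253, 0.469 and 0.412 CPM in untreated and 0.45, 0.237 and 0.393 CPM in treated parental cells, and 0.292, 0.413 and 0.38 CPM in untreated SDS22-degron cells. After Dox/IAA, SDS22-degron cells had 0.992, 0.929 and 1.07 CPM, which is 12 to 13 counts per library and above all 9 other libraries. The log2 fold change was 1.44 between the treated lines (SE 0.36, adjusted p = 0.0033) and 1.44 with Dox/IAA in SDS22-degron cells (SE 0.35, adjusted p = 0.0024). The interaction of 1.51 (SE 0.58) was not called (adjusted p = 0.121).

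PCDHB14 had 0, 0.0782 and 0.33 CPM in untreated and 0.15, 0.158 and 0.472 CPM in treated parental cells, and 0.364, 0.275 and 0.304 CPM in untreated and 0.839, 0.774 and 0.906 CPM in treated SDS22-degron cells. The treated SDS22-degron libraries again lay above all others. It was higher by 1.66 between the treated lines (SE 0.51, adjusted p = 0.0122), which was lost without treated parental replicate 1 (1.38, adjusted p = 0.0591) and was 2.37, still called, without treated parental replicate 3. With Dox/IAA in SDS22-degron cells it rose by 1.39 (SE 0.48, adjusted p = 0.021), which was lost with DESeq2 (1.43, adjusted p = 0.0723), without untreated SDS22-degron replicate 2 (1.30, 0.0692) or 3 (1.37, 0.0548), and without treated SDS22-degron replicate 3 (1.32, 0.0605).

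Both beta genes passed the filter on low counts through Dox/IAA-treated SDS22-degron cells alone, where all 3 libraries reached its level of 0.79 CPM. Their counts of calls therefore say nothing about the cluster. Over all 16 beta genes, passed or not, the summed level was 0.787 ± 0.199 CPM (SD, n = 3) in untreated and 0.979 ± 0.302 CPM in treated parental cells, and 1.01 ± 0.14 CPM in untreated and 3.32 ± 0.446 CPM in treated SDS22-degron cells. The treated SDS22-degron libraries ranged from 2.94 to 3.81 CPM and the 9 others from 0.591 to 1.18 CPM. The 14 untested beta genes had 26, 16 and 15 counts together in the treated SDS22-degron libraries and 3 to 7 counts in each other library. Among them, PCDHB9, PCDHB10 and PCDHB11 are named because they were called when no filter was used. Without a filter, PCDHB11 had log2 fold changes of 2.96 between the treated lines (adjusted p = 0.00848) and 3.05 with Dox/IAA in SDS22-degron cells (adjusted p = 0.00498). PCDHB9 was called between the treated lines (3.05, adjusted p = 0.0445) and PCDHB10 with Dox/IAA in SDS22-degron cells (2.09, adjusted p = 0.0344). Their counts in the treated SDS22-degron libraries were 8, 3 and 7 for PCDHB11, 6, 4 and 1 for PCDHB9, and 8, 4 and 5 for PCDHB10, and no more than 4 in any other library.

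**Figure D2:**
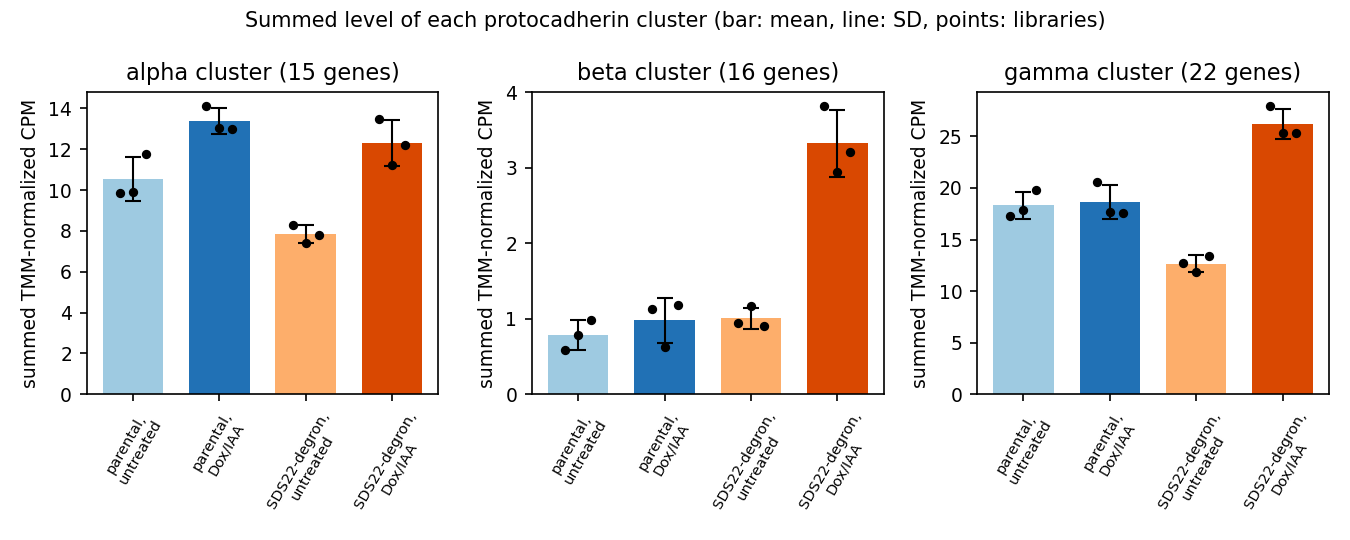
Summed TMM-normalized CPM of all genes of the alpha, beta and gamma clusters in the 4 groups (bars: mean of 3 libraries, lines: SD, points: libraries). The beta sum is 3.32 CPM in Dox/IAA-treated SDS22-degron cells and at most 1.01 CPM in the other group means, the gamma sum goes from 12.7 to 26.2 CPM with Dox/IAA in SDS22-degron cells, and the alpha sum goes up in both lines.

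PCDHGA10 (chr5:141412987-141512979) was the main transcript of the gamma cluster, with 66.4% to 87.8% of its counts. It had 15.2, 14.9 and 15.9 CPM in untreated and 16.6, 13.1 and 13.7 CPM in treated parental cells. SDS22-degron cells had 10.2, 9.7 and 11.6 CPM without and 18.5, 19.8 and 19.6 CPM with Dox/IAA. The untreated SDS22-degron libraries were thus the lowest and the treated ones the highest of all 12. PCDHGA10 was lower in untreated SDS22-degron than in untreated parental cells (log2 fold change -0.55, SE 0.11, adjusted p = 0.00118) and higher between the treated lines (0.41, SE 0.11, adjusted p = 0.00361). It rose with Dox/IAA in SDS22-degron cells (0.88, SE 0.11, adjusted p = 2.4e-06) and had a log2 fold change of -0.08 in parental cells (95% CI -0.31 to 0.14). The interaction of 0.96 (SE 0.15, adjusted p = 0.000399) was called under every alternative run.

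PCDHGB2 (chr5:141360042-141512979) rose most among the tested gamma genes with Dox/IAA in SDS22-degron cells. It had 0.591, 0.625 and 0.742 CPM in untreated parental, 0.6, 1.19 and 1.26 CPM in treated parental and 0.51, 0.344 and 0.683 CPM in untreated SDS22-degron cells. Treated SDS22-degron cells had 3.36, 2.17 and 2.14 CPM, each above all 9 other libraries. PCDHGB2 reached the filter's level of 0.79 CPM in these 3 libraries, in 2 of treated parental cells and in 0 untreated ones. Its entry into the test thus depended on the groups where it was high. The log2 fold change with Dox/IAA was 2.32 in SDS22-degron cells (SE 0.33, adjusted p = 1.22e-05) and 0.62 in parental cells (95% CI -0.19 to 1.43), and the difference between the treated lines was 1.34 (SE 0.29, adjusted p = 0.00107). The interaction was 1.70 (SE 0.54, adjusted p = 0.0408). It was not called without untreated parental replicate 1 (1.75, adjusted p = 0.0709), 2 (1.71, 0.0614) or 3 (1.60, 0.109), without untreated SDS22-degron replicate 1 (1.70, 0.0777) or 2 (1.47, 0.114), without treated parental replicate 1 (1.40, 0.0796), or without treated SDS22-degron replicate 1 (1.43, 0.08).

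PCDHGA9 and PCDHGB7 were at similar low levels. PCDHGA9 had 0.169, 0.469 and 0.412 CPM in untreated and 1.12, 0.79 and 0.708 CPM in treated parental cells, and 0.437, 0.344 and 0.304 CPM in untreated and 1.68, 0.697 and 1.07 CPM in treated SDS22-degron cells. It rose in both lines, by 1.29 in parental (SE 0.46, adjusted p = 0.0391) and 1.64 in SDS22-degron cells (SE 0.42, adjusted p = 0.00299). PCDHGA9 reached the filter's level of 0.79 CPM in 2 libraries of each treated group and in 0 untreated libraries. Its entry into the test thus depended on the groups where it was high. The parental call was lost with DESeq2 (1.31, adjusted p = 0.0879), without untreated parental replicate 1 (0.97, 0.15) or 3 (1.41, 0.0662), and without treated parental replicate 1 (1.07, 0.149), 2 (1.36, 0.0505) or 3 (1.42, 0.0501). PCDHGB7 had 0.591, 0.391 and 0.824 CPM in untreated and 1.12, 0.711 and 0.708 CPM in treated parental cells, and 0.437, 0.481 and 0.304 CPM in untreated and 1.3, 1.08 and 0.988 CPM in treated SDS22-degron cells. It rose in SDS22-degron cells (1.44, SE 0.36, adjusted p = 0.00294), where the groups did not overlap, and was at 0.50 in parental cells (adjusted p = 0.328). PCDHGB7 reached the filter's level in 3 libraries of treated SDS22-degron cells, in 0 of untreated ones and in 1 of each parental group. It too entered the test mainly through the group where it was high. The interactions of PCDHGA9 (0.35, 95% CI -1.03 to 1.74) and PCDHGB7 (0.93, 95% CI -0.17 to 2.04) were not called.

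Over all 22 gamma genes, the summed level was 18.3 ± 1.29 CPM (SD, n = 3) in untreated and 18.6 ± 1.66 CPM in treated parental cells, and 12.7 ± 0.808 CPM in untreated and 26.2 ± 1.48 CPM in treated SDS22-degron cells. The A-type genes, PCDHGA10 among them, summed to 16.7, 16.5, 11.5 and 22.2 CPM in the same order, and the B-type genes to 1.31, 2.02, 0.994 and 3.86 CPM. Without a filter on low counts, the untested gamma gene PCDHGA5 was also called with Dox/IAA in SDS22-degron cells (2.59, adjusted p = 0.0326). The 3 C-type genes stayed at 0.13 to 0.299 CPM in the group means, which is 1 to 6 counts per library. Between 13 and 18 gamma genes had a count in each treated SDS22-degron library, compared to 9 to 15 in the other libraries. The alpha sum, by contrast, was 10.5 ± 1.08 CPM in untreated and 13.4 ± 0.63 CPM in treated parental cells, and 7.85 ± 0.443 and 12.3 ± 1.14 CPM in SDS22-degron cells.

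**Figure D3:**
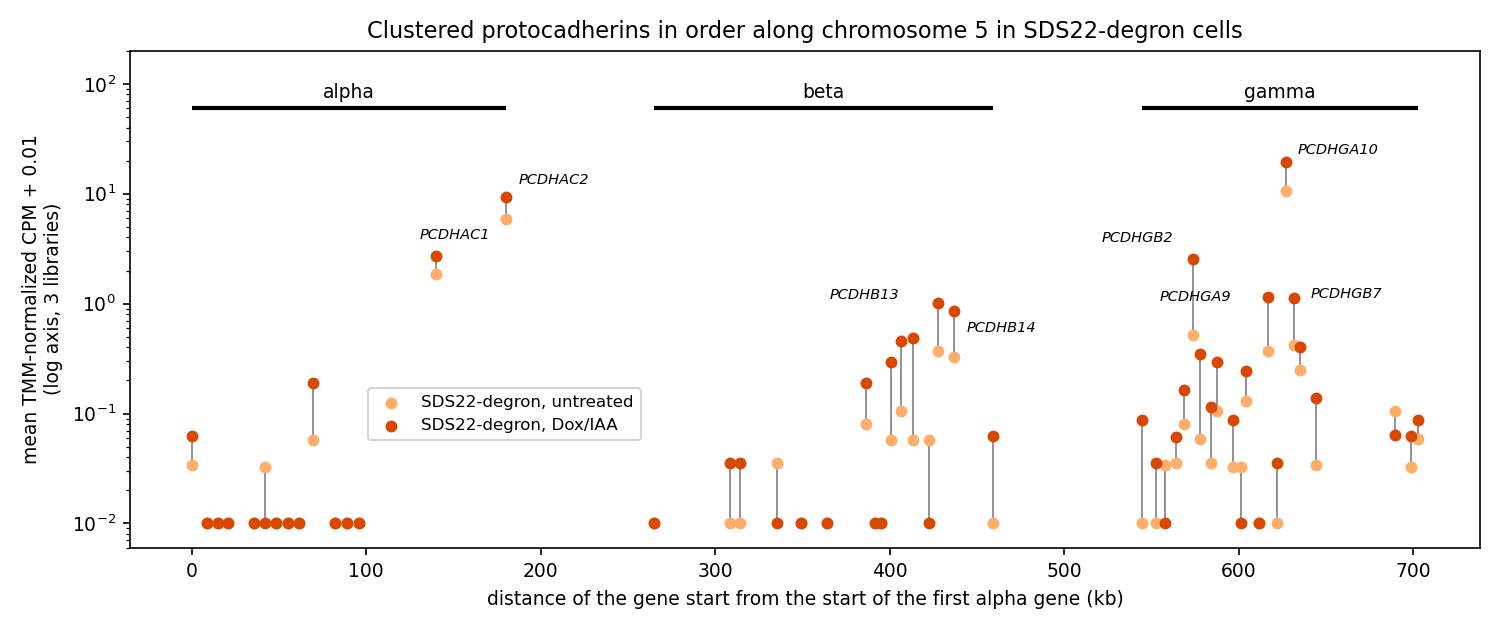
Mean CPM + 0.01 (log axis, 3 libraries) of the 53 clustered genes in untreated and Dox/IAA-treated SDS22-degron cells, against the distance of the gene start from the start of the first alpha gene in kb, with grey lines joining the values of a gene. PCDHGA10 and PCDHAC2 have the highest means (19.3 and 9.37 CPM after Dox/IAA), and the alpha genes other than PCDHAC1 and PCDHAC2 lie at or near 0.

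Counts on alpha and gamma genes carry a limit, since these genes overlap each other on the same strand. In the GENCODE annotation, 67.2% of the exonic bases of PCDHGA10, 54.8% of those of PCDHGB2, 59.1% of PCDHAC1 and 53.4% of PCDHAC2 belong to no other gene of that strand, and how reads on shared exons were counted is not given in the sources used here. For PCDH1, PCDH7 and PCDH19 the share was 100%.

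Across the 11 tested members, 7 were called between the treated lines, where 44.9% of all tested genes were called. PCDH1, PCDHB13, PCDHB14, PCDHGA10 and PCDHGB2 were the 5 higher ones (background 21.8%), and PCDH7 and PCDH19 the 2 lower ones (background 23.1%). The cut-off of the study, an unadjusted p under 0.05 with an absolute log2 fold change above 1, was passed by 5 members (background 6.63%), namely PCDH7, PCDH19, PCDHB13, PCDHB14 and PCDHGB2. Between the untreated lines, 3 members were called (background 28.2%), all lower in SDS22-degron cells (background 15%, and 13.2% for higher), and the libraries of 5 members did not overlap (background 43.5%). Dox/IAA raised 2 members in parental cells (background 31.6% called, 15.9% higher) and 8 in SDS22-degron cells (background 51.5% called, 26% higher), and it lowered none in either line without the replicate block (background 15.7% and 25.5%). With the block, PCDH7 was called lower in parental cells (-0.21, adjusted p = 0.0203), where each of the 3 treated libraries was below the untreated one of its number. At an unadjusted p under 0.05 the number lowered was 1 in parental cells (PCDH7) and 0 in SDS22-degron cells, and with DESeq2 it was 0 in both lines. For these 2 settings the share of all genes was not counted. In the interaction, 3 members were called, all higher (background 14.4% called, 6.03% higher, 8.35% lower). Libraries of the treated lines did not overlap for 7 members (background 52.9%), those of parental cells with and without Dox/IAA for 2 (background 41.3%), and those of SDS22-degron cells with and without Dox/IAA for 9 (background 59.9%). The median log2 fold change over the tested members was 0.88 with Dox/IAA in SDS22-degron cells and 0.48 in parental cells, beside medians of 0.00 over all tested genes. PCDHB13, PCDHB14, PCDHGB2 and PCDHGB7 reached the filter's level in all 3 libraries of treated SDS22-degron cells only. PCDH19 did so in those of treated parental cells only, and PCDHGA9 reached it in 2 libraries of each treated group and in 0 untreated ones. The counts and medians above therefore do not describe all protocadherins. The comparisons also share libraries, so that a high or low group enters several of them.

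**Figure D4:**
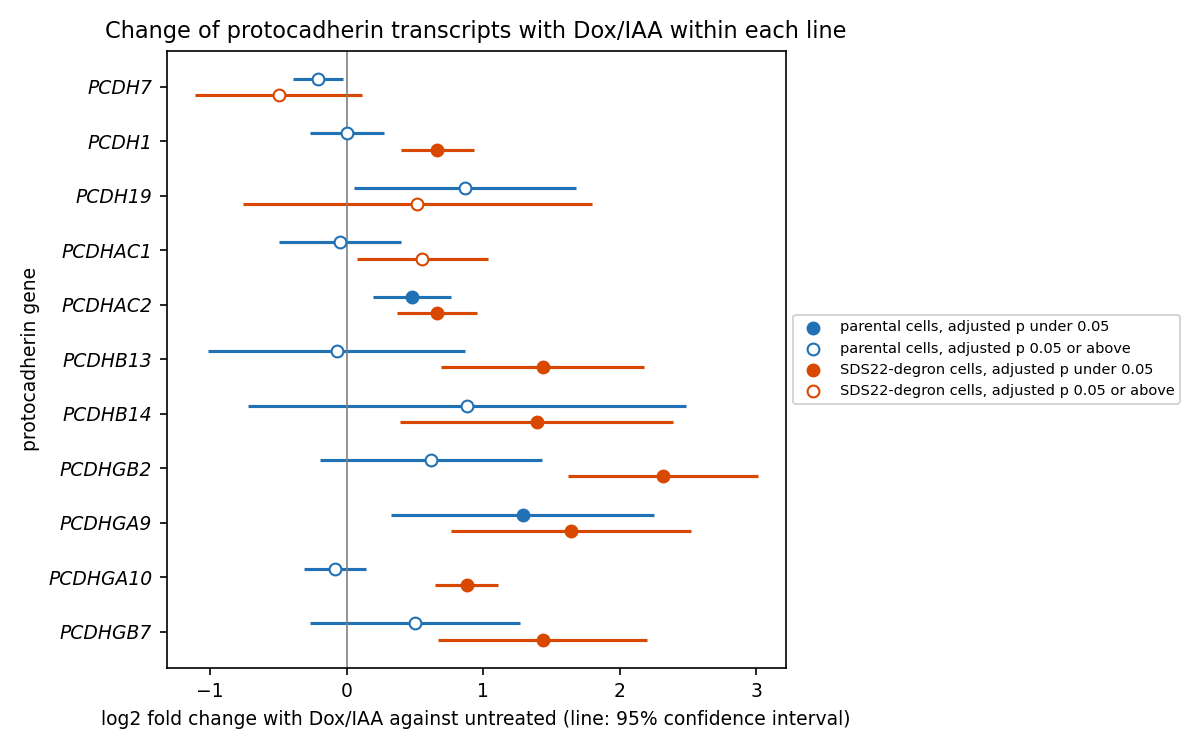
Log2 fold change with Dox/IAA against untreated cells in parental (blue) and SDS22-degron cells (orange) for the 11 tested protocadherins, with 95% confidence intervals (filled: adjusted p under 0.05). In SDS22-degron cells 8 genes are called, from 0.66 for PCDH1 and PCDHAC2 to 2.32 for PCDHGB2, and in parental cells PCDHAC2 and PCDHGA9.

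Genes beside the clusters were measured as well. Of 30 testable protein-coding genes within 1 Mb, 9 rose and 5 fell with Dox/IAA in SDS22-degron cells (background 26% and 25.5%), and 2 were higher and 1 lower in the interaction (background 6.03% and 8.35%). TAF7, a TFIID subunit that lies between the beta and gamma genes on the other strand, had means of 51.4, 57.7, 67.8 and 90.6 CPM in untreated and treated parental and untreated and treated SDS22-degron cells, and rose by 0.42 with Dox/IAA in SDS22-degron cells (adjusted p = 0.000104). ZMAT2, the nearest before the clusters at 79 kb, was not called (0.14, adjusted p = 0.0685). DIAPH1, a formin gene on the other strand whose near end lies 2 kb after the gamma cluster, fell by 0.42 on the log2 scale (adjusted p = 3.73e-05).

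Among 48 other cadherin superfamily genes, 19 were testable. Between the treated lines 9 of them were higher and 1 was lower in SDS22-degron cells, with a median of 0.28 (background 21.8% higher and 23.1% lower). The smallest p values belonged to RET, a receptor kinase with cadherin-like domains (1.22, adjusted p = 1.22e-07), CLSTN3, a calsyntenin (0.74, adjusted p = 2.61e-07), and FAT2, a giant cadherin (3.90, adjusted p = 3.13e-07). Of these, RET and FAT2 were already higher between the untreated lines (1.10, adjusted p = 5.31e-06, and 2.96, adjusted p = 4.9e-07), whereas CLSTN3 was at 0.01 (adjusted p = 0.967). CLSTN3 rose by 1.07 with Dox/IAA in SDS22-degron cells, and its interaction was 0.73 (adjusted p = 0.000188).

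Chromatin factors known to act at clustered protocadherin promoters were all testable. Of 18, 3 were higher and 12 lower between the treated lines, with a median of -0.33 (background 21.8% and 23.1%). DNMT1, the maintenance DNA methyltransferase, had means of 359 CPM in untreated and 300.1 CPM in treated parental cells, and 354 and 185 CPM in SDS22-degron cells. It was lower by -0.70 between the treated lines (adjusted p = 8.44e-07) and had an interaction of -0.68 (adjusted p = 0.000354). The cohesin subunit RAD21 (-0.64, adjusted p = 1.28e-06) and the boundary factor CTCF (-0.49, adjusted p = 7.98e-06) were lower as well. Both were also lower between the untreated lines (RAD21 -0.24, adjusted p = 0.01635, and CTCF -0.45, adjusted p = 4.05e-05). These are mRNA levels, and their part in the protocadherin values was not tested.

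Cytoplasmic partners and proteases of protocadherins gave a mixed picture. Of 18 testable genes among 19, 4 were higher and 6 lower between the treated lines, with a median of -0.06 (background 21.8% and 23.1%). Genes of the WAVE complex, which links protocadherins to actin, went both ways. CYFIP2 (0.93, adjusted p = 1.46e-08), WASF3 (1.39, adjusted p = 6.44e-05) and ABI1 (0.26, adjusted p = 0.00609) were higher, and WASF2 (-0.38, adjusted p = 9.47e-05) and NCKAP1 (-0.17, adjusted p = 0.0332) were lower. ABI1, WASF2 and NCKAP1 were named after their values were seen. WASF3 and CYFIP2 were also higher between the untreated lines (1.65, adjusted p = 3.07e-05, and 0.51, adjusted p = 2.95e-05). WASF2 was also lower there (-0.44, adjusted p = 5.8e-05), while ABI1 (-0.01, adjusted p = 0.952) and NCKAP1 (-0.11, adjusted p = 0.223) were not called.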

How the data were processed

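Poly-A RNA of 12 HCT116 libraries (4 groups of 3) was sequenced with single reads from a stranded kit. The values deposited are raw read counts for each gene, which were not normalized. Per the submitters' processing notes, cutadapt 1.15, Bowtie2 2.3.3.1, STAR 2.5.2b, SAMtools 1.5, featureCounts 1.5.3 and GRCh38 were used, and the strand setting and the handling of shared reads are not given in the sources used here. The percent of G and C in every gene, a further column deposited, was used in a correction only. The number of columns without a sample was 0.

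Genes were filtered with filterByExpr (minimum count 10), scaled with TMM and fitted with a mean per group in edgeR 4.0.16 (R 4.3.3, limma 3.58.1), and contrasts were tested two-sided with the quasi-likelihood F test and Benjamini-Hochberg adjustment over 16657 genes. DESeq2 1.42.0 and other alternatives are listed below. No 2 columns were identical, and replicates differed beyond counting noise (chi-square per degree of freedom 2.06 to 9.02). The titles number the libraries as biological replicates, and the design text of the series mentions independent experiments. Deviations of same-numbered libraries correlated at 0.101 to 0.138 between the treated lines and 0.124 to 0.246 within parental cells. Over all groups, libraries of different number correlated at -0.184 to 0.0845. Same-numbered libraries were read as pairs in those 2 comparisons from these data alone. Members and gene lists were chosen with earlier results of these data known. Every testable member is named, and those called, and PCDH7, are given per library; for each list and region the 3 smallest p values between the treated lines or the nearest genes are named, except for 1 item that is not reported here. On simulated counts (16452 genes), a planted log2 fold change of 1.5 was recovered in 93.5% of changed genes between the treated lines, 95% within SDS22-degron cells and 86% in the interaction. The 200 changed genes were drawn from all tested genes, without a replicate effect. These shares therefore do not give the recovery at the low counts of many members. Shared exons were taken from GENCODE on GRCh37, without coordinates. Standard errors and confidence intervals come from the fit and include the spread between replicates, whereas the limit for a count of 0 covers counting error only. Figures were drawn with matplotlib 3.10.9.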

Additional observations from a re-analysis of the deposited data

Results flagged for a closer look

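The effect of Dox/IAA differed between the lines for 3 protocadherins, by the interaction term of the model (edgeR's quasi-likelihood test, adjusted over all tested genes). PCDHGA10 had an interaction of 0.96 on the log2 scale (adjusted p = 0.000399), and its 3 treated SDS22-degron libraries were all above the 3 untreated ones. PCDH1 had 0.66 (adjusted p = 0.02) and PCDHGB2 1.70 (adjusted p = 0.0408), again with 3 of 3 treated SDS22-degron libraries above every untreated one. Among all tested genes, 14.4% passed the same test, and for 59.9% the SDS22-degron libraries with and without Dox/IAA did not overlap. The interaction of PCDHGA10 was called under all 21 alternatives, that of PCDH1 under 17 of 21 and that of PCDHGB2 under 13 of 20. The calls of PCDH1 and PCDHGB2 were lost with single libraries left out, and under no other alternative that gave an adjusted p. DESeq2 gave none for the interaction of PCDHGB2. PCDHGB2 passed the filter on low counts through the groups where it was high, with 3 libraries of treated SDS22-degron cells and 2 of treated parental cells. No group had enough libraries for a search for single outlying libraries.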

How the results depend on the processing

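Of 23 called log2 fold changes, 23 kept their direction in every alternative that gave a value, and 16 stayed under the threshold in all of them. Alternatives were the likelihood ratio test, DESeq2, library size only, the upper quartile, no filter, a stricter filter (1 CPM), only the groups compared, a GC correction, the replicate block alone and with the GC correction, and each library left out. DESeq2 gave no adjusted p for 6 values. Other scalings moved the median of all genes by at most 0.0584. Without a filter, which left 45 members testable, 9 members were called between the treated lines and 11 with Dox/IAA in SDS22-degron cells. The number of called members fell to 4 (treated lines) and 5 (Dox/IAA in SDS22-degron cells) with the stricter filter, which left 6 members testable, and to 1 in parental cells with DESeq2, with the stricter filter or with only the groups compared. With single libraries left out, it ranged from 6 to 7 between the treated lines (5 to 5 past the cut-off of the study), 2 to 4 between the untreated lines, 0 to 3 in parental cells, 7 to 9 in SDS22-degron cells and 1 to 3 in the interaction. The share of all genes called was not counted under these alternatives. The numbers therefore show only how far the calls held, and cannot be read as a result about protocadherins.

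With the replicate block, 7 members were called between the treated lines, 4 between the untreated lines, 3 and 9 with Dox/IAA in parental and SDS22-degron cells, and 3 in the interaction. The additional ones were PCDH19 (-1.41, adjusted p = 0.0437), PCDH7 and PCDHAC1 (0.55, adjusted p = 0.0364), and the block changed no other call. The share of all genes called with the block was not counted. Between the untreated lines and within SDS22-degron cells, same-numbered libraries correlated at 0.0584 to 0.118 and -0.00926 to 0.0953. The range between the untreated lines overlaps that of 0.101 to 0.138 between the treated lines, so these values do not settle which comparisons are paired. Over all groups, 26 of 36 best matches were to the library of the same number.

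Some values that were not called changed sign. PCDH1 was 0.00336 between the untreated lines with the upper quartile, and -0.0528 and -0.0556 in parental cells with the GC correction alone and with the block. PCDHAC1 was 0.00949 in parental cells with library size only. With single libraries left out, PCDHAC1 ranged from -0.161 to 0.0904 between the treated lines and -0.18 to 0.0883 in parental cells, PCDH1 from -0.15 to 0.0497 between the untreated lines and -0.13 to 0.16 in parental cells, PCDHB13 from -0.27 to 0.13 and -0.29 to 0.15 in the same comparisons, and PCDHGA9 from -0.27 to 0.32 between the untreated lines. In the interaction, where the values with all libraries were not near 0, PCDH19 (-0.35) ranged from -0.82 to 0.20. PCDHB14 (0.51) ranged there from -1.03 to 1.22 and PCDHGA9 (0.35) from -0.0428 to 0.66. The cause was not tested. Depth limits the low members most, with 3 to 13 counts per library for PCDHB13.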
